A study of Arabidopsis thaliana with 6 samples.

Results

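Cyclic electron flow returns electrons from photosystem I to the plastoquinone pool of the thylakoid membrane, so that light energy can drive ATP synthesis without net production of NADPH. In Arabidopsis this flow follows a route that needs the small stromal protein PGR5 and its membrane partner PGRL1, and another through the chloroplast NADH dehydrogenase-like (NDH) complex, a relative of mitochondrial complex I that takes electrons from ferredoxin. Subunits of the NDH complex are encoded partly in the plastid and partly in the nucleus, and the complex docks to photosystem I. Seedlings kept in darkness hold etioplasts, which lack functional photosystems.

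The genes described here are 10 nuclear loci of 24487 in the expression table, listed by locus identifier. The list uses no measured value, but it was chosen with earlier results of these data known. Counts of these genes set beside all tested genes are therefore descriptions. The 10 genes are PGR5 (AT2G05620), PGRL1A (AT4G22890), PGRL1B (AT4G11960), the subcomplex A subunits NDHL (AT1G70760), NDHM (AT4G37925), NDHN (AT5G58260) and NDHO (AT1G74880), and the subcomplex B subunits PNSB1 (AT1G15980), PNSB2 (AT1G64770) and PNSB3 (AT3G16250). RNA came from whole Arabidopsis thaliana seedlings, 4 days old, kept at 22 °C in the dark after cold treatment on agar medium. There were 3 libraries labelled wild type and 3 labelled atino80-6, a mutant line that takes its name from INO80 (AT3G57300), a chromatin remodelling ATPase; the latter are called mutant-labelled below. The labels give neither the accession of the wild type, nor the kind of allele, nor whether replicates were grown apart, so the p-values below measure the spread between these samples, which may be technical.

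The libraries held between 18446028 and 24156610 reads, and the 10 genes held between 21 and 1541 reads in any single library. INO80 transcript was higher in the libraries labelled atino80-6, at 28174 to 33322 normalized counts (reads divided by the library's size factor) against 5586 to 6173 for wild type, a 5.40-fold difference. Loss of the whole transcript would lower this count, but a count over the gene cannot show whether the full transcript was made. Whether the labels match the lines was not tested. Each direction below therefore rests on the labels as deposited. Among 10 marker genes of etiolated tissue, seed reserves, root hairs, epidermis and xylem, limma called 0 and the genotypes overlapped for 10 (0 at an unadjusted p under 0.05, and 0 with limma voom). Over all tested genes 34.2% were called and 48.3% did not overlap. The seed reserve means were all higher in the mutant-labelled libraries (CRA1 2.46-fold, CRC 2.09-fold, OLEO1 3.10-fold, SESA3 3.37-fold). Standard errors of their log2 changes were 0.78 to 1.05, so changes of that size could hardly be called. Means of EXPA7, COBL9 and ATML1 were lower (0.73-fold, 0.70-fold and 0.99-fold). None of the 10 markers was at 0, but SESA3 had 4 reads in wild type 2 and COBL9 had 9 in atino80-6 3. FPKM here are normalized counts per kilobase, over a library size common to all libraries. The summed level of the markers was 461 to 842 FPKM in wild type and 611 to 1895 in the mutant-labelled libraries. Most of this sum came from CRA1, PORA and PORB, so it says little about the other markers. The seed storage gene CRA1 ranged from 4922 to 16618 normalized counts in wild type seedlings and from 5530 to 50187 in the mutant-labelled libraries, with the lowest values in wild type 2 and atino80-6 3. Wild type 1 and atino80-6 3 stood apart within their groups in earlier results of these data. With both left out, limma called 5 of the 10 markers higher, namely CRA1, CRC, OLEO1 and SESA3 of the seed reserves and PORB, an etioplast enzyme of chlorophyll synthesis. Calls also rose over all 20222 tested genes in that fit, to 4435 higher and 4384 lower, from 3572 and 3351 with all libraries. CRA1 and OLEO1 were also called with atino80-6 3 alone left out, and PORB with wild type 1 or atino80-6 1 alone left out. The root hair marker COBL9 was called lower without atino80-6 1 (log2 change -1.42, limma adjusted p = 0.018). The part of remaining seed tissue in the results below was not tested. In whole seedlings, more cells of a type cannot be told apart from more RNA per cell.

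The comparison of the genotypes asks whether transcripts of the cyclic routes differ between dark-grown wild type and the line labelled atino80-6. All 10 genes were measured well enough to be tested, and 9 of them rose, 0 fell and PGRL1B did not pass the test (limma, adjusted p under 0.05). Over all 20222 tested genes 34.2% were called, 17.7% as higher and 16.6% as lower, a balance that turned under other scalings (3134 higher and 3943 lower on equal library totals). The count of members higher was again 9 on equal library totals and without wild type 1 and atino80-6 3. The genotypes did not overlap for 8 of the 10 genes, all higher in the mutant-labelled libraries, against 24.1% of all tested genes in that direction and 48.3% in either. The median log2 change of the 10 genes was 2.17, and that of all tested genes was 0.00039. The latter is largely set by the scaling with size factors and is not a finding. Of the 10 genes, 8 rose at least 2-fold, against 6.77% of all tested genes.

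**Figure D1:**
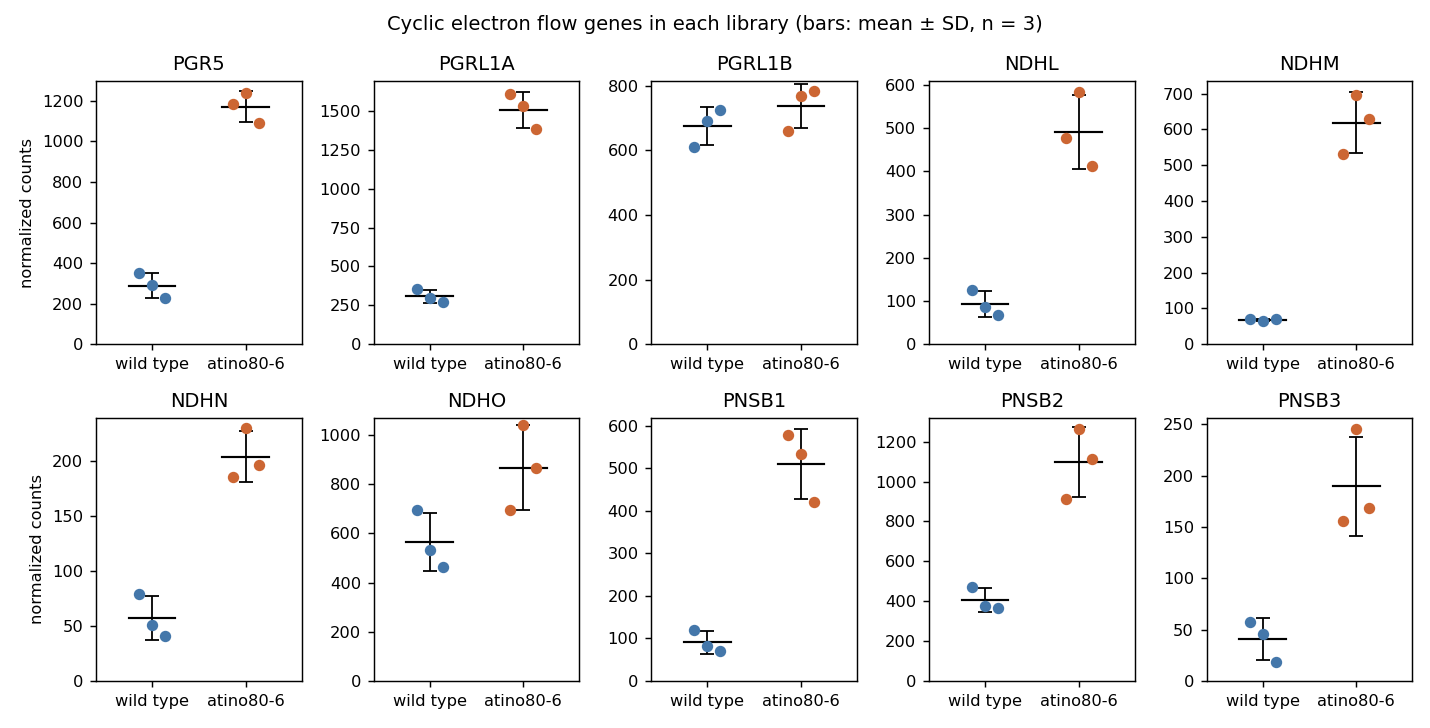
Normalized counts of the 10 genes in each library, with the vertical axis of each panel starting at 0; points are libraries, horizontal lines group means and error bars SD (n = 3). The genotypes are apart for 8 genes and overlap for PGRL1B and NDHO.

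PGR5, the small protein that gives the PGR5-PGRL1 route its name, had 349, 291 and 226 normalized counts in the 3 wild type libraries and 1183, 1240 and 1089 in the mutant-labelled ones. The lowest of the latter lay well above the highest wild type value. The means were 289 ± 61.8 and 1171 ± 76.3 (SD, n = 3 each), a 4.06-fold rise with a log2 change of 2.04 ± 0.15 (standard error; limma adjusted p = 2.7e-05).

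PGRL1A and PGRL1B encode closely related thylakoid proteins that form a complex with PGR5. PGRL1A had 354, 299 and 268 normalized counts in wild type seedlings and 1610, 1535 and 1382 in the mutant-labelled libraries, and the genotypes did not overlap. It rose 4.91-fold, with a log2 change of 2.30 ± 0.12 (limma adjusted p = 5.2e-06). PGRL1B had 610, 692 and 723 normalized counts in wild type seedlings and 660, 769 and 783 in the mutant-labelled libraries, so that the ranges overlapped. Its log2 change was 0.13 ± 0.10 (limma adjusted p = 0.37), with a 95% interval from -0.11 to 0.36.

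The order of the pair differed between the genotypes. Per length, PGRL1A made up 40.4%, 33.5% and 30.2% of the summed FPKM of the pair in the wild type libraries and 74.0%, 70.0% and 67.3% in the mutant-labelled ones. PGRL1B was the higher of the 2 in every wild type library and PGRL1A in every mutant-labelled one. The log2 ratio of PGRL1B to PGRL1A in normalized counts went from 1.14 ± 0.33 to -1.03 ± 0.24 (SD, n = 3 each), a difference of -2.17. An exact two-sided permutation test gave p = 0.1, the smallest p that 3 libraries against 3 allow. The summed level of the pair went from 16.5 ± 0.15 to 39.8 ± 1.43 FPKM (SD, n = 3 each), 2.42-fold. How reads shared by the related sequences were assigned is not stated.

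**Figure D2:**
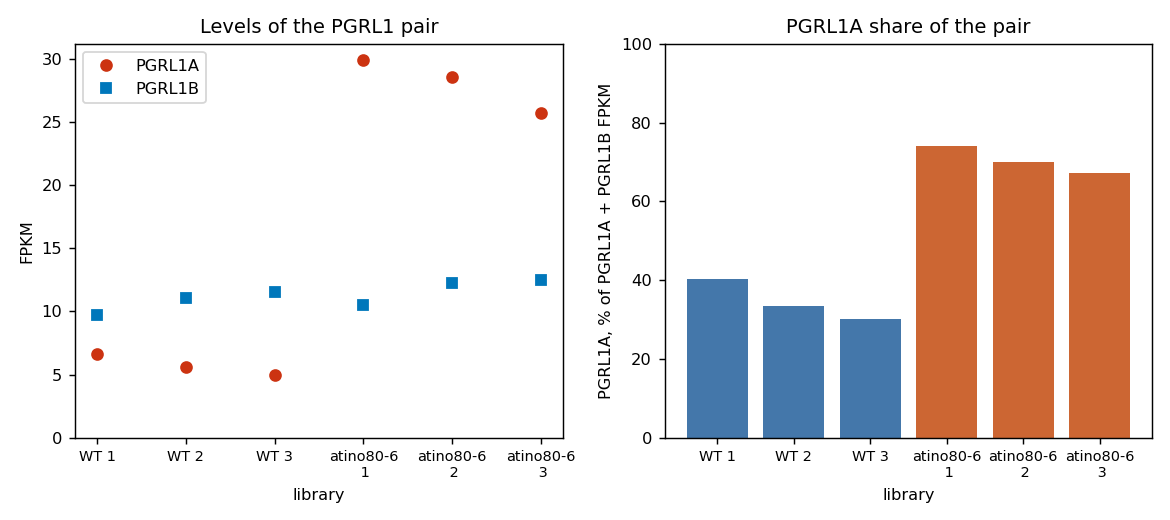
Left, FPKM of PGRL1A (circles) and PGRL1B (squares) in each library; right, PGRL1A as a percentage of the summed FPKM of the pair, with bars from 0. PGRL1A lies below PGRL1B in the 3 wild type libraries, at 30.2% to 40.4% of the pair, and above it in the 3 mutant-labelled ones, at 67.3% to 74.0%.

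The subcomplex A subunits NDHL, NDHM, NDHN and NDHO belong to the part of the NDH complex that joins the membrane to the stromal arm. NDHM showed the largest change among the 10 genes, from 70.0, 65.4 and 70.8 normalized counts in wild type seedlings to 530, 697 and 630 in the mutant-labelled libraries. Its wild type libraries lay within a narrow band, and the gene rose 9.01-fold with a log2 change of 3.14 ± 0.13 (limma adjusted p = 2.9e-06). NDHL had 125, 86.9 and 66.5 normalized counts in wild type seedlings and 477, 583 and 413 in the mutant-labelled libraries, with no overlap. It rose 5.29-fold (log2 change 2.42 ± 0.23, limma adjusted p = 0.0001).

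NDHN rose 3.57-fold, from 79.6, 50.8 and 41.1 normalized counts to 186, 230 and 197 (log2 change 1.87 ± 0.24, limma adjusted p = 0.00054). NDHO had the smallest change of the 7 subunits among the 10 genes. It had 697, 534 and 464 normalized counts in wild type seedlings and 696, 1041 and 867 in the mutant-labelled libraries, where the lowest value was just below the highest of wild type. NDHO rose 1.54-fold (log2 change 0.62 ± 0.18, limma adjusted p = 0.027). This call was lost when any of 4 libraries was left out, namely wild type 2, wild type 3, atino80-6 2 or atino80-6 3, with adjusted p between 0.051 and 0.10.

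The subcomplex B subunits PNSB1, PNSB2 and PNSB3 belong to an arm of the complex that its bacterial relatives lack. PNSB1 had 121, 81.0 and 70.0 normalized counts in wild type seedlings and 578, 535 and 420 in the mutant-labelled libraries, and rose 5.64-fold (log2 change 2.51 ± 0.21, limma adjusted p = 5.6e-05). PNSB2 had 472, 376 and 368 normalized counts in wild type seedlings and 914, 1266 and 1112 in the mutant-labelled libraries, and rose 2.71-fold (log2 change 1.43 ± 0.14, limma adjusted p = 0.00013). The genotypes did not overlap for either gene. PNSB3 had the lowest mean normalized count of the 10 genes in both groups. It had 57.7, 45.9 and 18.4 normalized counts in wild type seedlings and 155, 245 and 168 in the mutant-labelled libraries. In atino80-6 2 NDHN was lower, at 230. It rose 4.66-fold, with the largest standard error of the 10 (log2 change 2.31 ± 0.39, limma adjusted p = 0.0022).

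In RefSeq's annotation 4 of the 10 genes overlap a gene on the opposite strand that the files also measured, and the labels do not state whether reads kept their strand. Reads of the overlapped stretches can therefore not be told apart. PNSB3 overlaps the tonoplast aquaporin gene DELTA-TIP (AT3G16240), which had 35969 normalized counts in wild type seedlings and 48048 in the mutant-labelled libraries (log2 change 0.42, limma adjusted p = 0.042). NDHN overlaps EMB3143 (AT5G58250), which rose by 0.76 on the log2 scale (limma adjusted p = 0.0017), and ABCB25 (AT5G58270), at 0.03 (limma adjusted p = 0.80). NDHL overlaps AT1G70770, at 0.08 on the log2 scale (limma adjusted p = 0.58), and PNSB1 overlaps CNGC7 (AT1G15990), which had 0 reads in wild type. The neighbours' part in the changes of these 4 genes was not tested. PGR5, PGRL1A, PGRL1B, NDHM, NDHO and PNSB2 have no such overlap.

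In the authors' deposited table, which compares the same libraries with DESeq2, 9 of the 10 genes were higher at an adjusted p under 0.05, where 16.1% of all genes with an adjusted p were. PGRL1B stood at 0.13 on the log2 scale in the authors' deposited table, with an adjusted p of 0.49, and NDHO at 0.62 (adjusted p = 0.0044). The log2 changes of the 10 genes there and in limma differed by at most 0.087.

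Compared per length, NDHO (21.8 ± 4.62 FPKM; SD, n = 3) and PGR5 (16.0 ± 3.42) were the most abundant of the 10 transcripts in wild type, and their ranges overlapped. PGRL1B (10.8), PNSB2 (7.65) and PGRL1A (5.72) came next, each below all libraries of the gene before it. NDHL (3.79), NDHM (3.26), NDHN (2.52), PNSB1 (2.07) and PNSB3 (1.29) followed, with ranges that overlapped from each gene to the next, as did those of PGRL1A and NDHL. In the libraries labelled atino80-6 PGR5 stood alone at the top with 64.9 ± 4.23 FPKM (SD, n = 3). NDHO (33.5), NDHM (29.4) and PGRL1A (28.1) were the next, with overlapping ranges from each gene to the next, followed by PNSB2 (20.7) and NDHL (20.0), which also overlapped. PGRL1B (11.8), PNSB1 (11.7) and NDHN (9.01) overlapped from each gene to the next, and PNSB3 (6.02) was again the lowest. Per RefSeq exon length, NDHN and not PNSB3 was the lowest in both groups, and NDHO and not PGR5 the highest in the mutant-labelled one. Among all tested genes, NDHM moved from percentile 30.2 of mean FPKM in wild type to percentile 83.5 and PGR5 from 71.0 to 93.3, while PGRL1B was at 60.6 and 62.4.

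The transcript levels of the 7 NDH subunits among the 10 genes lay closer together in the mutant-labelled libraries. The highest of the 7 exceeded the lowest 14.7-fold, 14.2-fold and 30.8-fold in the wild type libraries and 5.45-fold, 5.17-fold and 6.26-fold in the mutant-labelled ones, in FPKM. Over all 18 nuclear NDH subunit genes listed, this ratio was 130, 144 and 652 in wild type and 20.5, 17.2 and 17.1 in the mutant-labelled libraries. The groups do not overlap in either ratio. Counting error is larger for the lowest genes, which in wild type rest on few reads.

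**Figure D3:**
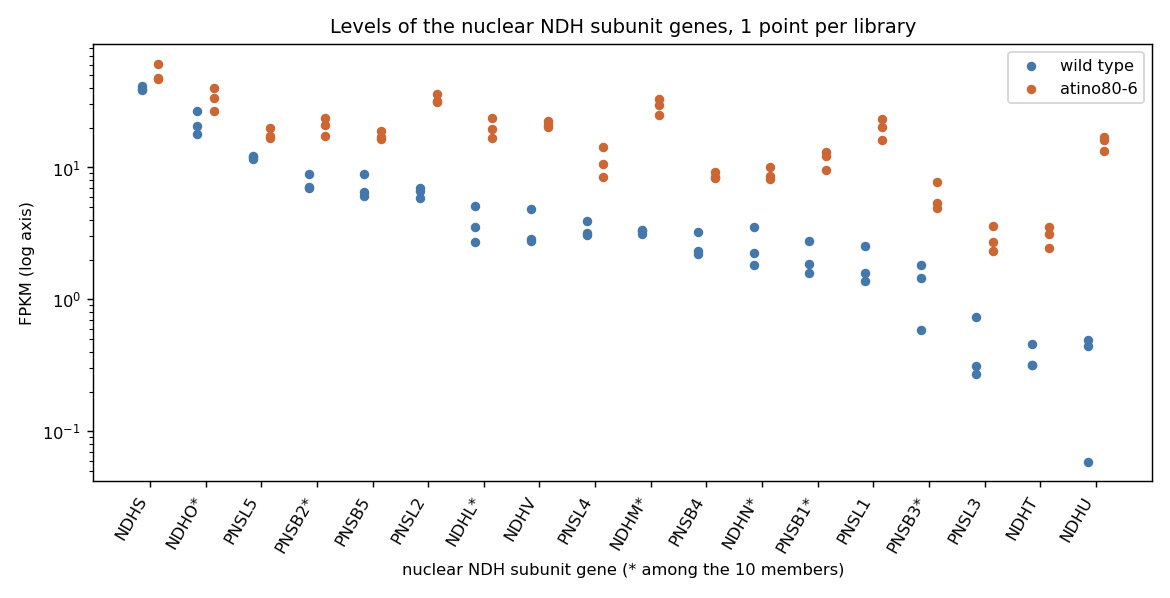
FPKM of the 18 nuclear NDH subunit genes on a log axis, ordered by mean level in wild type, with 1 point for each of the 3 libraries of each genotype. NDHS and NDHO on the left differ 1.30-fold and 1.54-fold between the genotypes and NDHU on the right 46.6-fold; the wild type values that order the genes also enter these folds.

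The other nuclear subunits of the NDH complex, 11 genes of subcomplex B, the lumen subcomplex and the ferredoxin-binding part, all rose, 11 of 11 tested, with a median log2 change of 2.34. For comparison with this list and those below, 17.7% of all tested genes were called higher and 34.2% in either direction. NDHU, a J-like protein of the ferredoxin-binding part, had 13.1, 14.6 and 1.75 normalized counts in wild type seedlings and 480, 500 and 396 in the mutant-labelled libraries. It rose 46.6-fold with a log2 change of 5.76 ± 0.58 (limma adjusted p = 0.00015). The change was 4.94 without wild type 3 and 5.11 with a pseudocount of 5. PNSL1, a PsbP-like lumen subunit, rose 10.8-fold, NDHT, a J protein, 8.31-fold and PNSL3, a PsbQ-like lumen subunit, 6.57-fold (limma adjusted p at most 0.00094 for these 3). PNSL4, which is also the lumen immunophilin FKBP16-2, rose by 1.68 on the log2 scale and is named in addition, after its values were seen. The smallest change was that of NDHS, the ferredoxin-binding subunit, chosen for mention after its values were seen, with 887 ± 38.9 normalized counts against 1152 ± 179 (SD, n = 3 each), a 1.30-fold rise (limma adjusted p = 0.032). The NDHS call did not hold with wild type 2, wild type 3 or atino80-6 2 left out, nor on equal library totals, where the adjusted p was at most 0.10.

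The plastid genes of the same complex gave few reads. The 11 plastid ndh genes of the table together held 206, 179 and 115 reads in the wild type libraries and 99, 117 and 284 in the mutant-labelled ones. Of these, 7 were tested, and limma called 0 of them, as did limma voom, while 1 of them, NDHK, had an unadjusted p under 0.05. The median of the 7 was 0.43 on the log2 scale. NDHK, chosen after its values were seen, had 7.87, 12.7 and 8.75 normalized counts in wild type seedlings and 12.9, 24.9 and 30.7 in the mutant-labelled libraries (limma adjusted p = 0.075), and passed without atino80-6 1 (adjusted p = 0.031) and with FPKM as deposited (adjusted p = 0.043). Plastid genes made up 0.0686% of reads in atino80-6 3 and 0.0144% to 0.024% in the other 5 libraries. With 99 to 284 reads a library for all 11 genes, changes of single plastid ndh genes could be measured only coarsely. How far the library preparation kept plastid RNA was not tested. Few reads therefore need not mean low plastid transcript levels, and these genes were not measured as well as the nuclear subunits.

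Nuclear factors that assemble the NDH complex or process plastid ndh transcripts rose in 10 of 14 tested genes. None of the 14 fell, and their median was 0.95 on the log2 scale. CRR3, needed for the complex to accumulate, had 44.7 ± 20.6 normalized counts against 282 ± 32.9 (SD, n = 3 each), a 6.30-fold rise (limma adjusted p = 0.00017). CRR42 and CRR7, which act in the assembly of subcomplex A, rose 3.59-fold and 3.08-fold. CRR4, a pentatricopeptide repeat protein needed for editing of the ndhD transcript, rose 3.37-fold from a mean of 6.03 normalized counts, but its call was lost without atino80-6 1 (adjusted p = 0.057) and, at an adjusted p of 0.050, with wild type 1 and atino80-6 3 both left out. CRR2, a pentatricopeptide repeat protein that processes ndhB transcripts, chosen after its values were seen, had 176 and 181 normalized counts on average (log2 change 0.03, limma adjusted p = 0.84). With single libraries left out, the factors called higher numbered 7 to 11.

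Genes for the photosystem I linkers and for the redox partners of the cyclic routes rose in 9 of 10 tested genes, with a median log2 change of 1.88. LHCA6 and LHCA5, antenna proteins that link the NDH complex to photosystem I, rose 5.11-fold and 3.88-fold. The ferredoxin-NADP reductase gene FNR1 rose 3.87-fold and the leaf ferredoxin gene FD2 3.84-fold, FD2 with 1715 ± 235 normalized counts against 6583 ± 763 (SD, n = 3 each; limma adjusted p at most 1.2e-05 for these 4). The plastid terminal oxidase gene PTOX, chosen after its values were seen, rose 1.25-fold, the smallest change called in this group (limma adjusted p = 0.031), and its call was lost on equal library totals and with wild type 1, wild type 3, atino80-6 1 or atino80-6 2 left out (adjusted p at most 0.12). PGRL2, a further PGRL1-related gene, likewise chosen after its values were seen, had a log2 change of 0.30 (limma adjusted p = 0.062).

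Mitochondrial complex I, which is related to the NDH complex and works in respiration, gave changes of at most 0.46 on the log2 scale. Of 15 nuclear subunit genes tested, 10 were higher and 0 lower, with a median log2 change of 0.29. None of the 15 reached 2-fold, while 15 of the 18 nuclear NDH subunit genes did. Of all tested genes, 6.77% were called higher with a rise of at least 2-fold. PSST, an iron-sulfur subunit of the peripheral arm, had 2541 ± 51.5 normalized counts against 3518 ± 360 (SD, n = 3 each), a 1.38-fold rise (limma adjusted p = 0.004). GAMMACAL1, TYKY2 and B14 rose 1.34-fold, 1.29-fold and 1.29-fold. Of these complex I genes, 5 were called higher if wild type 2 or atino80-6 2 was left out. The number was 6 if wild type 3 or atino80-6 1 was, and also on equal library totals and with the repeat number as a block.

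**Figure D4:**
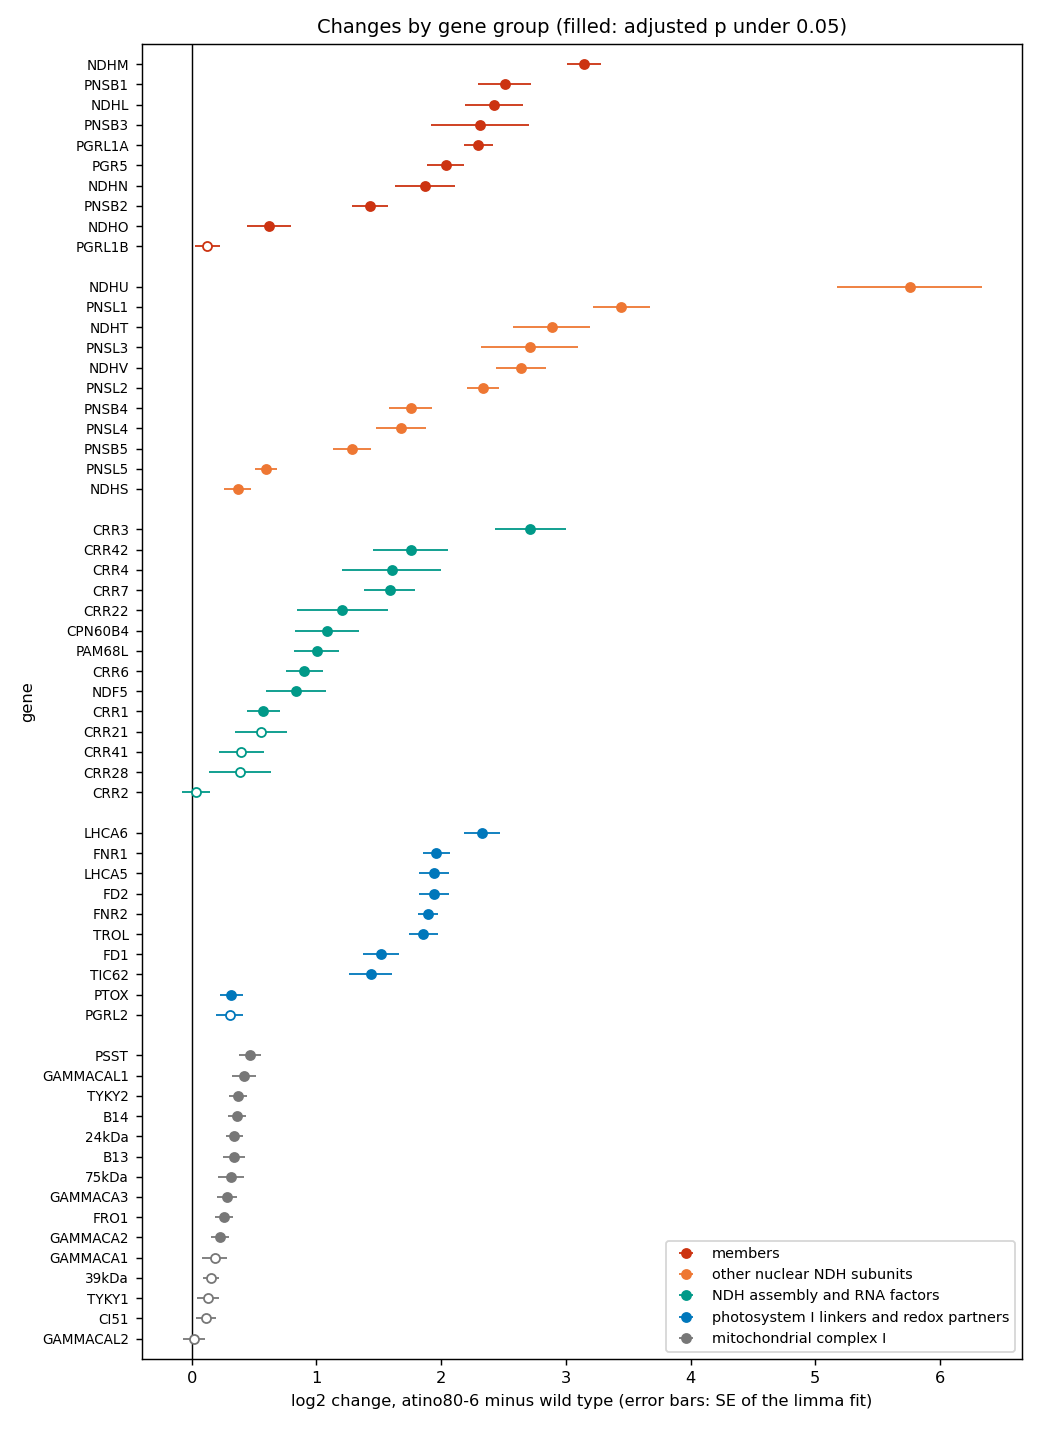
Log2 change between the genotypes for the tested genes of 5 groups, with bars for the standard error; filled symbols passed limma at an adjusted p under 0.05. The 10 genes span 0.13 to 3.14, the other nuclear NDH subunits 0.37 to 5.76, and mitochondrial complex I genes 0.02 to 0.46.

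As a description, the tested nuclear genes whose log2 values followed the mean of the 10 genes most closely were ZFN3 (AT5G16540), AT4G28240, ATPD (AT4G09650), PDE334 (AT4G32260) and AT2G07042, with Pearson r from 0.9992 to 0.9995 over the 6 libraries. Pearson r does not take in the size of a change. Here it is set mainly by the difference between the genotypes, so a high r does not show regulation in common. The log2 changes of these genes were 1.28, 0.30, 1.85, 1.45 and 0.97 in that order, against a median of 2.17 for the 10 genes. ATPD and PDE334 encode subunits of the chloroplast ATP synthase. Of the 20119 genes ranked, 1612 had an r above 0.95, and the 6 points share their libraries and size factors.

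Across 17 other settings of the fit, 9 of the 10 genes stayed on their side of the threshold, PGRL1B among them as never called, and NDHO was the exception. PGR5 lay between 1.87 and 2.24 on the log2 scale, PGRL1A between 2.21 and 2.47 and NDHM between 3.05 and 3.25. PGRL1B lay between 0.0098 and 0.20. NDHM, the gene with the largest change, thus stayed above the highest value of any other of the 10 genes, which was 2.87 for PNSB1.

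**Figure D5:**
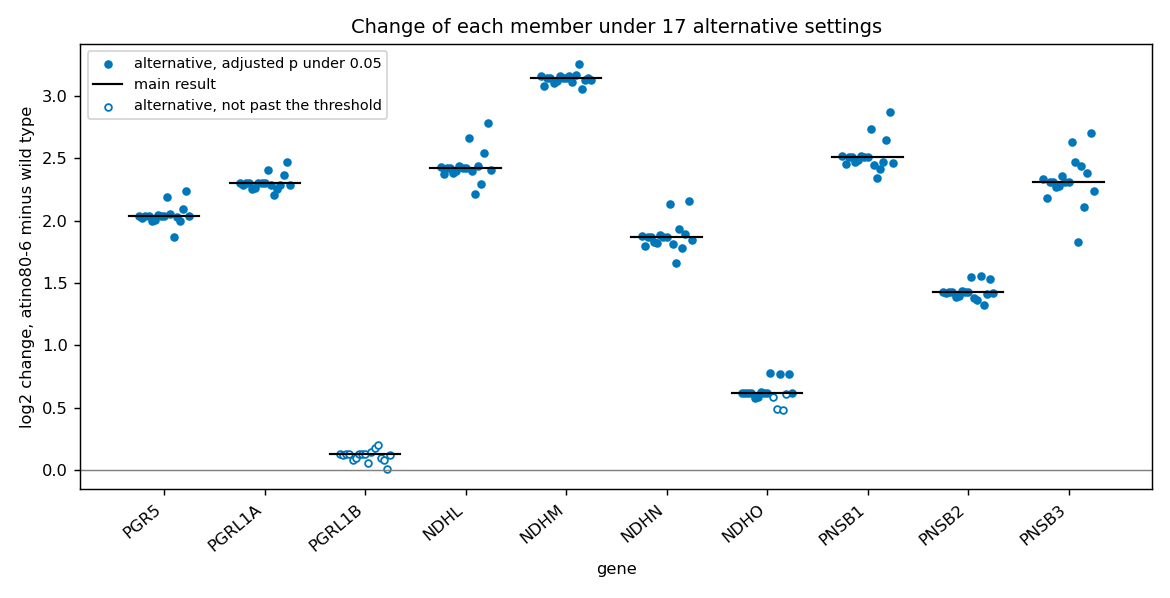
Log2 change of each of the 10 genes under 17 alternative settings (points) and as reported (lines); open points did not pass an adjusted p of 0.05. PGRL1B is open throughout and NDHO in 4 settings, while the points of the other 8 genes are all filled.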

How the data were processed

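RNA of 6 seedling libraries, 3 for each genotype, went through TRIzol extraction, DNase digestion and TruSeq library preparation, per the labels. The submitters' processing notes name HISAT2, featureCounts and DESeq2 (besides FastQC, cutadapt, SAMtools, deepTools) with the build TAIR10; versions and annotation are not given in the sources used here. The authors deposited an expression table whose values have the form of FPKM scaled with DESeq2 size factors, and a DESeq2 comparison with, per the file headers, a mean signal (normalized count), log2 fold changes with standard errors, a score (change over error) and raw and adjusted p-values.

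Normalized counts were recovered from the deposited FPKM values and mean signal; with size factors undone, 146922 of 146922 values came out as whole reads (tolerance 0.01 reads). The 20222 genes averaging 10 or more normalized counts were tested on log2(normalized count + 1) with limma 3.58.1 (R 4.3.3, genotype model, empirical Bayes with trend, two-sided, Benjamini-Hochberg over all tested genes, threshold 0.05). The procedure was also run on simulated counts with a fixed spread and far fewer changed genes than were called here. That run checks the code and does not show how the test performs on these libraries. "Rose" means past this threshold; folds are ratios of mean normalized counts, and log2 changes, in which the pseudocount shrinks each low value's differences, are differences of mean logs, carry standard errors and can lie above or below the log of the fold. A floor of 3 reads in a library, which covers counting error only, is 2.62 to 3.5 normalized counts. The permutation test was exact, in scipy 1.17.1; tables used Python 3.11.15, numpy 2.4.6, pandas 2.3.3 and matplotlib 3.10.9.

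The members, lists and tests were chosen with earlier results of these data known. The naming rule took the 10 genes, INO80 and from each other list up to 4 called genes with the largest change; others are marked as chosen after their values were seen. Lists were written by hand. RefSeq names, strands and overlaps come from TAIR10.1, to which 24255 of 24487 identifiers (99.1%) matched; no coordinates or sequences are given because the files' build is TAIR10. Same-numbered libraries were not paired by the labels. Alternatives were other pseudocounts (0.5, 5), filters (none, 50) and scalings (equal totals, quantile), voom, robust fitting, a block, libraries left out, and FPKM with a pseudocount of 0.1.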

Additional observations from a re-analysis of the deposited data

How the results depend on the processing

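Over 17 alternatives, 9 of the 10 genes kept their direction and their side of the threshold in every one; the exception was NDHO. NDHO kept its direction but lost its call without each of wild type 2, wild type 3, atino80-6 2 and atino80-6 3, with log2 changes from 0.48 to 0.61, and over all 6 fits that left out a library its change ran from 0.48 to 0.78. The number of members called higher was 8 in those 4 fits and 9 in the others. PGRL1B ranged from 0.0098, without wild type 1 and atino80-6 3, to 0.20, without atino80-6 1, and passed in none. PNSB3 had the widest range of the others, from 1.83 without wild type 3 to 2.70 without wild type 1 and atino80-6 3. The difference in the PGRL1B to PGRL1A log2 ratio lay between -2.46 and -2.03 in alternatives chosen for it after seeing the data, among them -2.16 with quantile scaling and -2.17 with voom's log2 values; it was not recomputed for the filters, robust fitting or the block. Equal library totals moved the median of all genes to -0.043 and quantile scaling to -0.035, and the balance of calls turned from 3572 higher and 3351 lower to 3134 and 3943 and to 3301 and 3883. Same-numbered libraries did not deviate together (correlations of deviations 0.027, -0.19 and -0.097), and no library correlated best with its own number. With 3 libraries in each group, this cannot decide whether same-numbered libraries were grown or prepared together. With the repeat number as a block, limma called 3158 genes higher and 2919 lower, and 9 members higher. Depth limits low genes, such as NDHU with 2 reads in wild type 3, NDHT, PNSL3, CRR4 and the plastid ndh genes; among the members PNSB3 had the lowest count, 21 reads in wild type 3.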

Other observations

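The gene lengths behind the deposited FPKM values could be recovered as whole bases for 24487 of 24487 genes (within 0.01 bases). For the 10 genes they were between 0.70 and 1.0 of the RefSeq gene span, and for 7 of the 10 they were longer than the summed RefSeq exons (for PGRL1B 2955 against 1533 bases). Per RefSeq exon length, an alternative chosen after seeing the data, NDHO and not PGR5 had the highest level in the mutant-labelled libraries, and PGRL1B stood second in wild type in place of PGR5. At the other end, NDHN and not PNSB3 was the lowest of the 10 genes in both groups, and PNSB2 stood behind NDHL and PGRL1B in the mutant-labelled libraries. PGRL1A then made up 31.6% of the pair in wild type and 67.4% in the mutant-labelled libraries (34.7% and 70.4% with the deposited lengths).

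Within the groups, wild type 1 was the highest wild type library for 8 of the 10 genes and wild type 3 the lowest for 8, while atino80-6 2 was the highest of its group for 7. PGRL1B went the other way in wild type, with its lowest value in wild type 1.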
